A study of Arabidopsis thaliana with 24 samples.

Results

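AT1G59860, AT2G29500, AT1G53540 and AT1G07400 of Arabidopsis thaliana encode small heat shock proteins of the cytosolic class I. They were chosen as the genes of this class that have a probe set named in the platform's probe-to-gene table, and they make up 4 of the 16552 genes tested. Each has 1 probe set that carries no other gene's name. The class also holds HSP17.4 and HSP18.2, which were not analysed here. The study compared plants mutated in HD2C, a plant histone deacetylase, in BRM, the ATPase of a SWI/SNF chromatin remodelling complex, or in both, before and after a short heat stress. The groups were hd2c-3, brm-1, the double mutant brm-1 hd2c-3 and WT, all in the Col-0 background and 3 weeks old, each after 1 h at 38 °C (heat) or without it (control), with 3 biological replicates, each on 1 array, in each of the 8 groups. Each mutation is represented by a single allele. No probe set is named for HD2C alone or BRM alone, so the labels of the mutants were not checked against the targeted transcripts. The tissue is given only as plants.

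Small heat shock proteins bind proteins that begin to unfold and hold them in a state from which HSP70 and HSP101 chaperones can refold them. Plants have an unusually large set of them, sorted into classes by sequence and by the compartment they work in, and the class I proteins work in the cytosol as large oligomers. Their genes are nearly silent in unstressed leaves and are switched on within minutes of heat by heat shock factors, which bind repeats of a short element in the promoters. The 4 genes are close relatives, and the sources used here do not give how well the probes of 1 gene separate it from the others.

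All values are log2 intensities of a probe set on 1 array, as deposited after RMA, and array medians lay between 3.42 and 3.65. Of the markers listed for plant organs, 1 of 7 leaf genes and 1 of 5 root genes were measured and none of the flower or seed genes. RCA, the activase of Rubisco in leaves, lay between 10.94 and 11.26 in heat arrays and between 10.63 and 10.88 in control arrays. PYK10, a glucosidase of roots and seedlings, lay between 8.01 and 9.66 in heat arrays and between 7.82 and 9.80 in control arrays, so RNA of both organs may be present. RCA was itself called higher after heat in hd2c-3 (0.38 ± 0.10) and in WT (0.33 ± 0.10). It was also higher, without a call, in brm-1 (0.28) and in the double mutant (0.24). The part of RCA in the heat results was not tested. A gene was called at an adjusted p under 0.05 (limma, Benjamini-Hochberg over all 16552 genes, two-sided), and an error given as ± is limma's moderated SE except where SD is stated. How often arrays lacked overlap over all genes was not counted, so a lack of overlap is a description and not a call. In bulk tissue, less RNA in every cell and fewer cells with the RNA cannot be told apart. Replicates were picked by the submitters because selected markers were expressed alike in them, per the design text, which may understate their spread.

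The first question was how strongly heat raised each gene and whether it did so in every genotype. All 4 genes were called higher after heat in all 4 genotypes. The share of all genes called higher was 5.8% in WT, 8.88% in hd2c-3, 7.28% in brm-1 and 9.38% in the double mutant. For 3 of the genes the rise was between 7.05 and 8.99 on the log2 scale, among the 5 largest of all genes in each genotype, whereas AT1G59860 rose by 2.07 to 2.96.

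AT2G29500 had the highest rise of all 16552 genes in each genotype. After heat its intensity was 10.94, 11.17 and 11.36 in hd2c-3, 10.75, 10.97 and 10.78 in brm-1, 11.04, 11.11 and 10.96 in the double mutant and 10.50, 10.68 and 10.51 in WT. In control plants it was 2.02, 2.31 and 2.16 in hd2c-3, 2.81, 2.53 and 2.70 in brm-1, 2.51, 2.82 and 2.66 in the double mutant and 2.57, 2.56 and 2.49 in WT. Heat and control arrays were thus separated in every genotype by far more than either varied. The rise was 8.99 ± 0.12 in hd2c-3 (510-fold), 8.15 ± 0.12 in brm-1 (285-fold), 8.37 ± 0.12 in the double mutant (331-fold) and 8.03 ± 0.12 in WT (261-fold), with adjusted p of at most 1.38e-22.

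AT1G53540 was nearly as strongly induced and ranked between the second and the fourth largest rise. After heat it measured 10.03, 10.19 and 10.42 in hd2c-3, 9.35, 9.54 and 9.27 in brm-1, 10.08, 10.15 and 9.90 in the double mutant and 9.45, 9.34 and 9.47 in WT. In control plants it measured 1.61, 2.45 and 1.69 in hd2c-3, 1.91, 1.80 and 2.16 in brm-1, 2.65, 1.58 and 2.49 in the double mutant and 1.93, 2.07 and 1.97 in WT. No heat array of any genotype overlapped with a control array. The rise was 8.29 ± 0.22 in hd2c-3 (314-fold), 7.43 ± 0.22 in brm-1 (173-fold), 7.80 ± 0.22 in the double mutant (224-fold) and 7.43 ± 0.22 in WT (172-fold), with adjusted p of at most 5.40e-17.

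AT1G07400 rose to 10.54, 10.56 and 10.45 after heat in hd2c-3, 10.39, 10.77 and 10.83 in brm-1, 10.45, 10.64 and 10.79 in the double mutant and 9.82, 10.15 and 10.53 in WT. Its control values were the most spread of the 4 genes, at 2.78, 2.34 and 3.89 in hd2c-3, 2.97, 3.42 and 3.93 in brm-1, 2.71, 4.03 and 3.74 in the double mutant and 2.92, 2.84 and 3.59 in WT. The lowest heat array still stood far above the highest control array. The rise was 7.52 ± 0.33 in hd2c-3 (183-fold), 7.22 ± 0.33 in brm-1 (149-fold), 7.14 ± 0.33 in the double mutant (141-fold) and 7.05 ± 0.33 in WT (133-fold), with adjusted p of at most 7.38e-13.

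AT1G59860 rose in all genotypes too, by less. After heat its intensity was 3.24, 5.20 and 6.17 in hd2c-3, 3.79, 5.57 and 5.62 in brm-1, 4.66, 5.24 and 5.38 in the double mutant and 3.21, 3.97 and 4.02 in WT. In control plants it was 1.70, 2.44 and 2.14 in hd2c-3, 1.86, 2.07 and 2.16 in brm-1, 2.08, 2.35 and 2.02 in the double mutant and 1.76, 1.78 and 1.46 in WT. Heat and control arrays did not overlap in any genotype, but heat arrays of hd2c-3 and of brm-1 ranged widely. The rise was 2.78 ± 0.49 in hd2c-3 (6.87-fold, adjusted p = 2.10e-04), 2.96 ± 0.49 in brm-1 (7.80-fold, adjusted p = 1.40e-04), 2.94 ± 0.49 in the double mutant (7.69-fold, adjusted p = 9.70e-05) and 2.07 ± 0.49 in WT (4.199-fold, adjusted p = 0.00560). It ranked between the 33rd and the 49th largest rise.

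**Figure D1:**
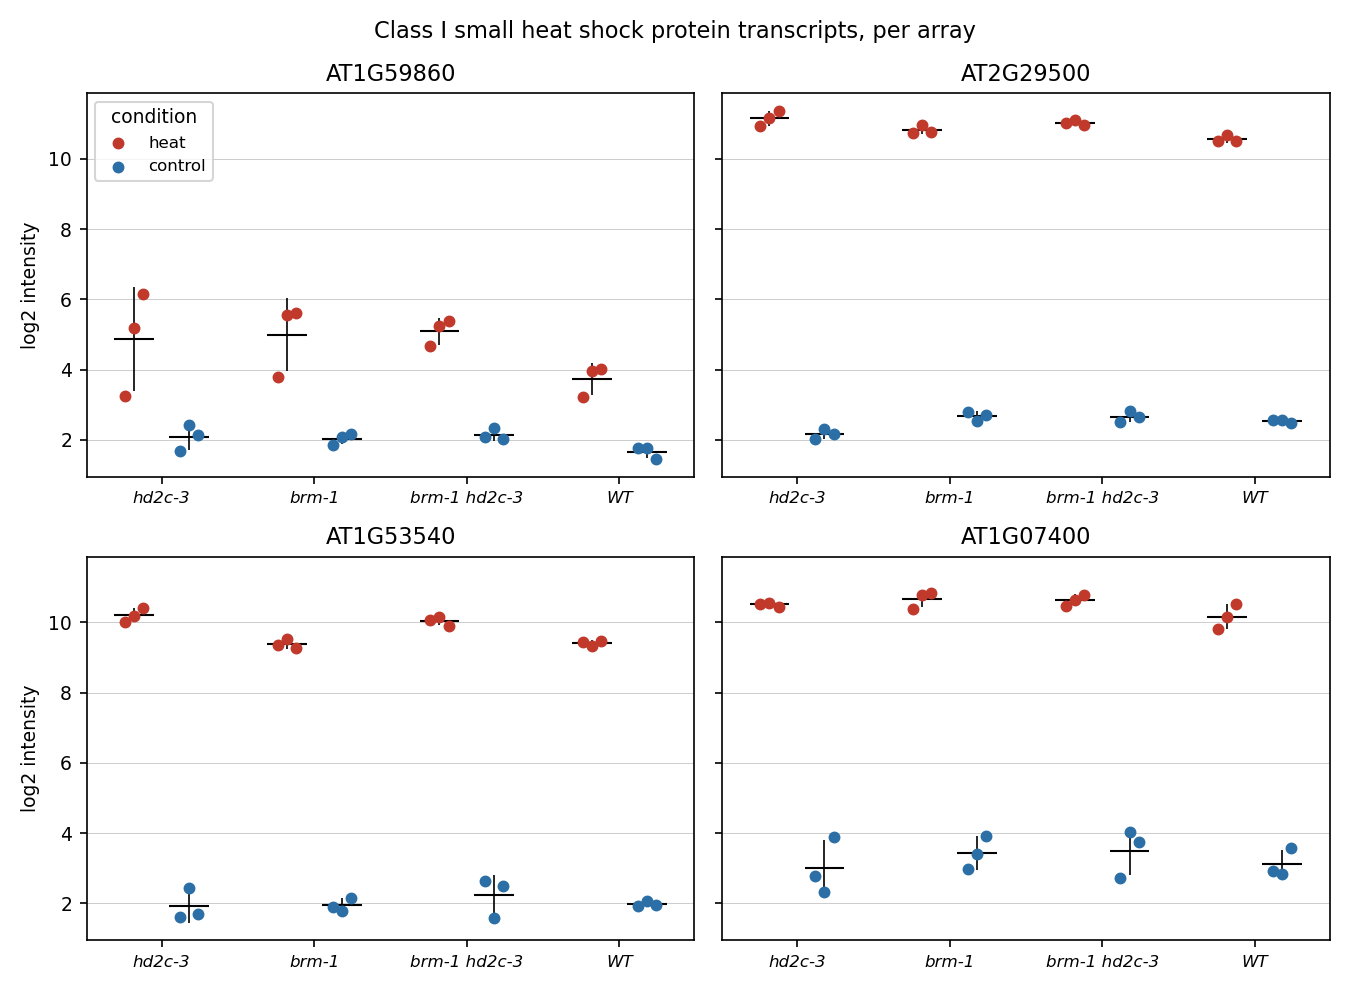
Log2 intensity of each gene on every array, with heat in red and control in blue for each genotype; bars mark the group mean and the vertical lines ± 1 SD (n = 3). The panels of AT2G29500, AT1G53540 and AT1G07400 show heat values between 9.27 and 11.36 and the AT1G59860 panel shows heat values between 3.21 and 6.17, with hd2c-3 and brm-1 spread most.

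**Figure D2:**
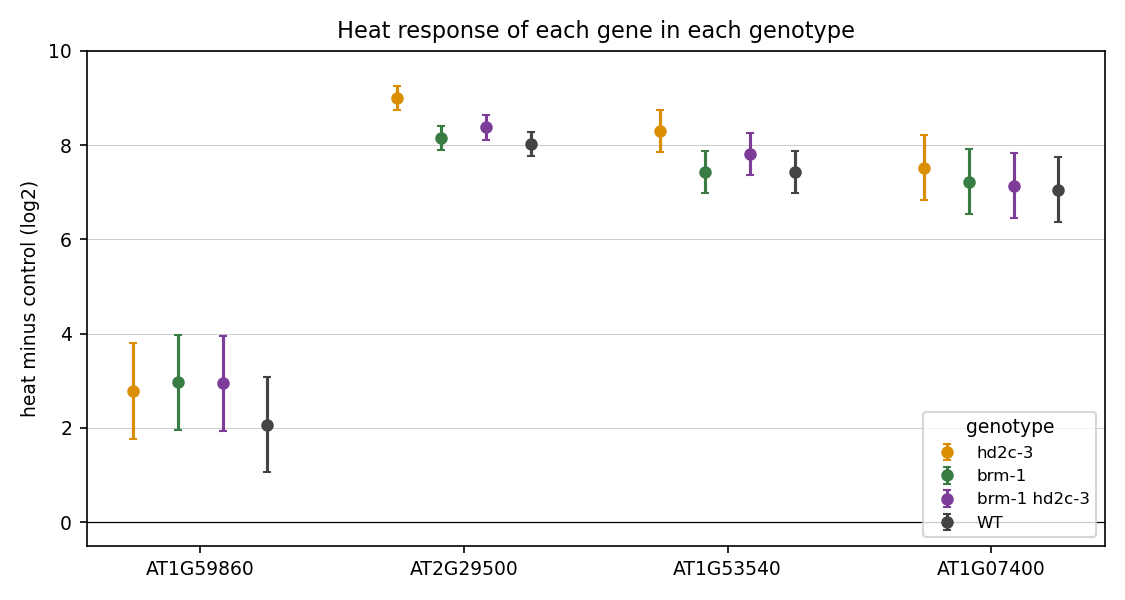
Heat minus control on the log2 scale for each gene in each genotype, with 95% confidence intervals from the linear model. The intervals of all 4 genes lie above 0 in all 4 genotypes, with AT1G59860 between 2.07 and 2.96 and the other genes between 7.05 and 8.99.

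The place of these values within the range of each array bears on the folds. After heat, AT2G29500 stood above 99.15% to 99.63% of the 38408 probe sets of its array, AT1G07400 above 98.6% to 99.4%, AT1G53540 above 97.9% to 99.1% and AT1G59860 above 45.7% to 81.1%. In control arrays the ranges were 26.3% to 40.7%, 32.9% to 56.4%, 11.99% to 37.98% and 11.2% to 34.7% for the same genes. The control values of all 4 thus lay in the lower or middle part of the array, where the deposited values hold no call of detection. A fold change is therefore a ratio of intensities and may differ from the ratio of transcripts.

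The genes beside them on the chromosome were also examined. Of the 8 protein-coding genes next to the 4 small heat shock protein genes, in the gene order of assembly TAIR10.1, 4 were measured. AT1G53530, next to AT1G53540, was higher after heat in WT by 0.42 ± 0.13 (adjusted p = 0.0349), and AT2G29510, next to AT2G29500, fell by 0.31 ± 0.11 in hd2c-3 (adjusted p = 0.0450). These were the 2 calls in 16 heat comparisons, where 20% of all genes were called in either direction in hd2c-3, 15.8% in brm-1, 21.5% in the double mutant and 13.3% in WT, and the remaining values lay between −0.25 and 0.32.

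The comparisons with WT after heat ask whether loss of either chromatin factor alters the induced level. In heated hd2c-3, AT2G29500 was called higher than in heated WT, by 0.60 ± 0.12 (1.51-fold, adjusted p = 0.0209), with 11.16 ± 0.21 in hd2c-3 and 10.56 ± 0.10 in WT (SD, n = 3 each) and no overlap. It was 1 of 4 genes called, where 0.495% of all genes were called higher. That background rests on single arrays, with 3 to 357 genes called in either direction when 1 array was left out, against 99 with all arrays (3 without WT heat replicate 1, 357 without hd2c-3 heat replicate 1). The AT2G29500 call was lost without WT heat replicate 1 (adjusted p = 0.131), WT heat replicate 3 (0.0898), hd2c-3 heat replicate 2 (0.106) or hd2c-3 heat replicate 3 (0.107), in a fit of the 6 arrays alone (0.313) and in a fit of the 12 heat arrays (0.168). The difference itself lay between 0.50 and 0.70 when any 1 array was left out. AT1G53540 did not overlap either, with 10.21 ± 0.20 in hd2c-3 and 9.42 ± 0.07 in WT (SD, n = 3 each), and its difference of 0.79 ± 0.22 missed the threshold (adjusted p = 0.101). AT1G59860 differed by 1.13 ± 0.49 (adjusted p = 0.334) and AT1G07400 by 0.35 ± 0.33 (adjusted p = 0.700), both with overlapping arrays. The difference of AT1G59860 rested on single arrays: it was 1.95 (adjusted p = 0.00950) without hd2c-3 heat replicate 1, the lowest of its group, and 0.49 (adjusted p = 0.689) without hd2c-3 heat replicate 3, the highest.

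In heated brm-1 none of the 4 genes was called against WT, where 5.1% of all genes were called. AT1G59860 measured 4.99 ± 1.04 in brm-1 and 3.74 ± 0.45 in WT (SD, n = 3 each), a difference of 1.26 ± 0.49 (adjusted p = 0.171), and it lay between 0.94 and 1.86 with 1 array left out, called (adjusted p = 0.0267) without brm-1 heat replicate 1. AT2G29500 differed by 0.27 ± 0.12 without overlap (adjusted p = 0.293), AT1G07400 by 0.50 ± 0.33 (adjusted p = 0.554), and AT1G53540 by −0.03 ± 0.22 with a 95% confidence interval from −0.48 to 0.42. The pooled SD of AT1G07400 was 0.23 in heat and 0.62 in control arrays, and its SE of 0.33 uses both. In a fit of the 12 heat arrays its SE was 0.18. Its adjusted p against WT was then 0.610 in hd2c-3, 0.223 in brm-1 and 0.198 in the double mutant. The root gene PYK10 was higher in heated brm-1 than in heated WT by 1.11 ± 0.26 (adjusted p = 0.0114), and its part in these values was not tested.

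In the heated double mutant AT2G29500 was called higher than in WT, by 0.47 ± 0.12 (1.39-fold, adjusted p = 0.0162), with 11.04 ± 0.07 in the double mutant and 10.56 ± 0.10 in WT (SD, n = 3 each). It was again 1 of 4, where 5.15% of all genes were called higher. The call was lost without WT heat replicate 1 (adjusted p = 0.0712), WT heat replicate 3 (0.0596) or replicate 2 of the heated double mutant (0.0508), in a fit of the 6 arrays alone (0.112) and in a fit of the 12 heat arrays (0.0704). The other genes were also higher but not called: AT1G59860 by 1.36 ± 0.49 (adjusted p = 0.0922) and AT1G53540 by 0.63 ± 0.22 (adjusted p = 0.0772), both without overlap, and AT1G07400 by 0.46 ± 0.33 (adjusted p = 0.490) with overlap. The lack of overlap has no background over all genes to be set against. AT1G53540 passed the threshold under 4 of 8 other ways of scaling or fitting the arrays and AT1G59860 under 3. In the fit of the 12 heat arrays AT1G59860 had an SE of 0.60 and an adjusted p of 0.268. Its pooled SD was 0.96 in heat and 0.24 in control arrays, and the SE of 0.49 from all 24 arrays uses both. These 3 comparisons share the WT heat arrays, so where they agree in direction the agreement is not independent. They did not all agree for AT1G53540, which was at −0.03 ± 0.22 in brm-1.

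**Figure D3:**
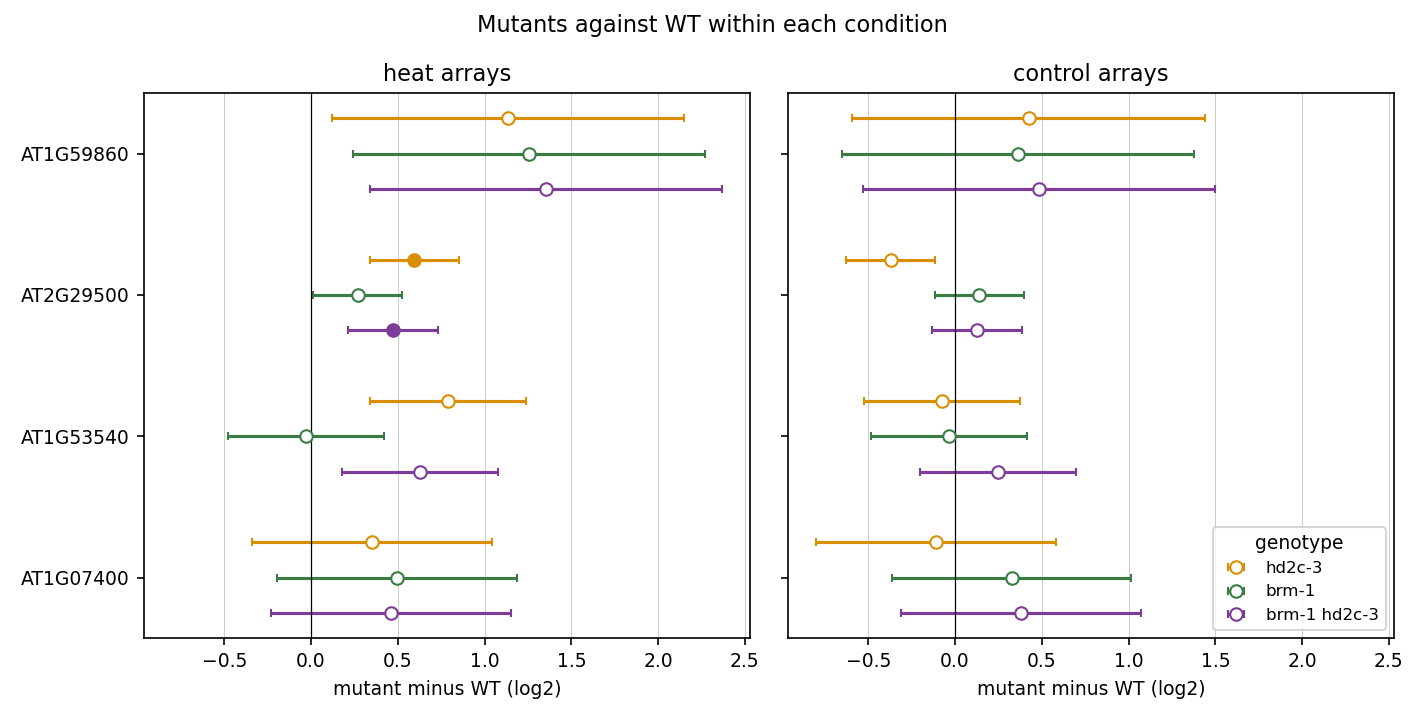
Mutant minus WT on the log2 scale in heat arrays (left) and control arrays (right), with 95% confidence intervals and filled symbols for genes called at an adjusted p under 0.05. Filled symbols occur for AT2G29500 in heated hd2c-3 and in the heated double mutant, and none in control arrays.

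Heat arrays can also be compared by each factor in turn, averaged over the state of the other, a comparison chosen after the values were seen. With HD2C lost, AT1G53540 lay at a lowest, median and highest value of 9.90, 10.12 and 10.42 in the 6 heat arrays of hd2c-3 and the double mutant, against 9.27, 9.40 and 9.54 in the 6 heat arrays of brm-1 and WT, without overlap. The difference was 0.72 ± 0.15 (1.65-fold, adjusted p = 0.00576), and its adjusted p lay between 0.00502 and 0.0200 when any 1 of the 12 arrays was left out. AT2G29500 lay at 10.94, 11.07 and 11.36 in the same 6 arrays without HD2C and at 10.50, 10.72 and 10.97 in the other 6, a difference of 0.40 ± 0.09 (1.32-fold, adjusted p = 0.00772), but 1 brm-1 array overlapped and the adjusted p was 0.0552 in a fit of the 12 heat arrays alone. AT1G59860 (0.62 ± 0.35, adjusted p = 0.321) and AT1G07400 (0.16 ± 0.24, adjusted p = 0.748) were not called, and AT1G59860 ran from 0.29 (adjusted p = 0.623) without hd2c-3 heat replicate 3 and 0.32 (adjusted p = 0.569) without brm-1 heat replicate 1 to 1.02 (adjusted p = 0.0203) without hd2c-3 heat replicate 1. Thus 2 of 4 were called, where 3.37% of all genes were called higher. PYK10 differed by −0.61 ± 0.19 in this comparison (adjusted p = 0.0544), and its part was not tested.

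The averaged difference of AT1G53540 by HD2C is the mean of its differences in each BRM state. Those differences are its parts and give no further support for it. They were 0.79 ± 0.22 between hd2c-3 and WT (adjusted p = 0.101) and 0.66 ± 0.22 between the double mutant and brm-1 (adjusted p = 0.0904). Neither was called in the fit of all 24 arrays, and neither had overlapping arrays. PYK10 was called between the heated double mutant and brm-1, at 8.65 ± 0.28 in the double mutant and 9.56 ± 0.15 in brm-1 (SD, n = 3 each). Its difference was −0.92 ± 0.26 (adjusted p = 0.0447), and its part was not tested. Replicates of AT1G53540 had a pooled SD of 0.14 in heat and 0.38 in control arrays, and the fit over all 24 arrays uses both. In a fit of the 12 heat arrays alone, added after the values were seen, the double mutant exceeded brm-1 with ± 0.14 and an adjusted p of 0.0302, and WT with an adjusted p of 0.0187, while hd2c-3 against WT remained at 0.101. The double mutant was not called against brm-1 for the other 3 genes, with differences from −0.03 to 0.20, where 4.8% of all genes were called.

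Averaged over HD2C, the loss of BRM gave no call among the 4 genes after heat, where 9.26% of all genes were called. The differences were 0.74 ± 0.35 for AT1G59860 (adjusted p = 0.222), 0.30 ± 0.24 for AT1G07400, 0.07 ± 0.09 for AT2G29500 and −0.10 ± 0.15 for AT1G53540. In the fit of the 12 heat arrays the SE was 0.43 for AT1G59860 (adjusted p = 0.429) and 0.13 for AT1G07400 (adjusted p = 0.236). AT1G59860 again moved with single arrays, to 0.33 without hd2c-3 heat replicate 1 (adjusted p = 0.557), 1.06 without hd2c-3 heat replicate 3 (adjusted p = 0.0331) and 1.04 without brm-1 heat replicate 1 (adjusted p = 0.0443). PYK10 was called higher in this comparison by 0.80 ± 0.19 (adjusted p = 0.00580), and its part was not tested. The double mutant against hd2c-3 likewise gave no call, with differences from −0.17 to 0.22, where 5.03% of all genes were called.

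Ordered by mean level after heat, AT1G53540 stood at 10.21 ± 0.20 in hd2c-3, 10.04 ± 0.13 in the double mutant, 9.39 ± 0.14 in brm-1 and, just above brm-1, 9.42 ± 0.07 in WT (SD, n = 3 each). Only the step between the double mutant and WT was free of overlap, while hd2c-3 overlapped with the double mutant and brm-1 with WT. AT2G29500 ran from hd2c-3 (11.16 ± 0.21) over the double mutant (11.04 ± 0.07) and brm-1 (10.83 ± 0.12) to WT (10.56 ± 0.10), and there brm-1 and WT, the last step, did not overlap. AT1G07400 was highest in brm-1 (10.66 ± 0.24), then the double mutant (10.63 ± 0.17), hd2c-3 (10.52 ± 0.06) and WT (10.17 ± 0.36), and each step overlapped. AT1G59860 was highest in the double mutant (5.09 ± 0.38), then brm-1 (4.99 ± 1.04), hd2c-3 (4.87 ± 1.49) and WT (3.74 ± 0.45), again with overlap at each step. WT therefore had the lowest mean after heat for 3 of the 4 genes, and brm-1 for AT1G53540.

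Without heat none of the 4 genes was called in any mutant, where 0.00604% of all genes were called in hd2c-3, 4.26% in brm-1 and 3.12% in the double mutant. For AT2G29500 the values stood at 2.17 ± 0.15 in hd2c-3 and 2.54 ± 0.04 in WT (SD, n = 3 each), without overlap, and the difference of −0.37 ± 0.12 was not called (adjusted p = 0.9997, unadjusted p = 0.00674). AT1G59860 was 2.09 ± 0.37 in hd2c-3, 2.03 ± 0.16 in brm-1, 2.15 ± 0.17 in the double mutant and 1.67 ± 0.18 in WT (SD, n = 3 each), and the mutants differed from WT by 0.36 to 0.48 with SE of 0.49, those of brm-1 and the double mutant without overlap. AT1G53540 was 1.92 ± 0.46, 1.96 ± 0.19, 2.24 ± 0.58 and 1.99 ± 0.07 in the same groups and differed by −0.08 to 0.25 with SE of 0.22, and AT1G07400, at 3.00 ± 0.80, 3.44 ± 0.48, 3.49 ± 0.69 and 3.11 ± 0.41, by −0.11 to 0.38 with SE of 0.33. The 95% confidence interval of AT1G59860 in the double mutant ran from −0.53 to 1.498. This interval and the SE of 0.49 also use the spread after heat. The pooled SD of AT1G59860 was 0.96 in heat and 0.24 in control arrays. In a fit of the 12 control arrays alone its SE was 0.17. Its adjusted p against WT was then 0.997 in hd2c-3, 0.308 in brm-1 and 0.167 in the double mutant. In the same fit the SE was 0.25 for AT1G53540 and 0.39 for AT1G07400.

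Whether a mutant responds to heat by another amount than WT was tested as the difference of the 2 responses. None of the 4 genes was called in any mutant. In hd2c-3 no gene at all was called among 16552 by limma (1105 had an unadjusted p under 0.05), in brm-1 0.187% were and in the double mutant 1.47%. AT2G29500 came closest in hd2c-3, with a response larger by 0.97 ± 0.18 (95% confidence interval 0.60 to 1.33, adjusted p = 0.0845). Part of that value came from the lower control level in hd2c-3 given above (−0.37 ± 0.12), at low intensities without a call of detection. It was called under 5 of 8 other ways of scaling or fitting the arrays, with adjusted p between 0.0231 and 0.377 over all 8, and without hd2c-3 heat replicate 1 (0.00519). AT1G53540 in hd2c-3 differed by 0.87 ± 0.31 (adjusted p = 0.630), and AT1G59860 by 0.71 ± 0.69, 0.89 ± 0.69 and 0.87 ± 0.69 in hd2c-3, brm-1 and the double mutant. With 1 array left out the AT1G59860 value ran from 0.06 (without hd2c-3 heat replicate 3) to 1.53 (without hd2c-3 heat replicate 1) in hd2c-3, and from 0.58 (without brm-1 heat replicate 3) to 1.49 (without brm-1 heat replicate 1) in brm-1. In brm-1 the responses of AT2G29500 and AT1G53540 differed from WT by 0.13 ± 0.18 and 0.0046 ± 0.31.

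If both losses acted independently on the log2 scale, the double mutant would differ from WT after heat by the sum of the single-mutant differences. The departure from that sum was not called for any of the 4 genes, where 0.199% of all genes were called. It was −0.39 ± 0.18 for AT2G29500 (unadjusted p = 0.0364, adjusted p = 0.484), −0.14 ± 0.31 for AT1G53540, −0.38 ± 0.47 for AT1G07400 and −1.03 ± 0.69 for AT1G59860. The 95% confidence intervals of the 4 values ran from −0.76 to −0.03, −0.77 to 0.50, −1.36 to 0.59 and −2.47 to 0.40. With 1 array left out, AT1G59860 ran from −1.85 (without hd2c-3 heat replicate 1) to −0.39 (without hd2c-3 heat replicate 3), and AT1G07400 was at −0.21 without WT heat replicate 1.

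The 4 genes differed in how tightly replicates held together. After heat the pooled SD within groups was 0.96 for AT1G59860, larger than in 99.95% of all genes, against 0.14 for AT2G29500, 0.14 for AT1G53540 and 0.23 for AT1G07400, and a median of 0.22 over all genes. In control arrays it was 0.24, 0.13, 0.38 and 0.62 for the same genes, and the median was 0.17. AT1G07400 was thus the most variable of the 4 without heat and AT1G59860 after heat. The heat array with replicate number 1 had the lowest AT1G59860 value in 4 of 4 genotypes, the lowest AT2G29500 and AT1G07400 value in 3 of 4 each, and the lowest AT1G53540 value in 1 of 4. How often this array was lowest over all genes was not counted, so these counts are descriptions.

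Over the 12 heat arrays, deviations from the group means went together for some pairs of genes. Pearson's r of these deviations was 0.77 between AT1G59860 and AT2G29500 and 0.75 between AT2G29500 and AT1G53540. It was 0.52 between AT1G59860 and AT1G53540 and 0.45 between AT1G59860 and AT1G07400. It was 0.01 between AT2G29500 and AT1G07400 and −0.11 between AT1G53540 and AT1G07400. All pairs share the same 12 arrays, so these values are descriptions. How well the probes separate these close relatives is not given, and the source of the shared variation was not tested. Levels, which add the genotype differences, gave r between 0.21 (AT1G53540 and AT1G07400, Spearman's rho 0.11) and 0.86 (AT2G29500 and AT1G53540, rho 0.85).

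**Figure D4:**
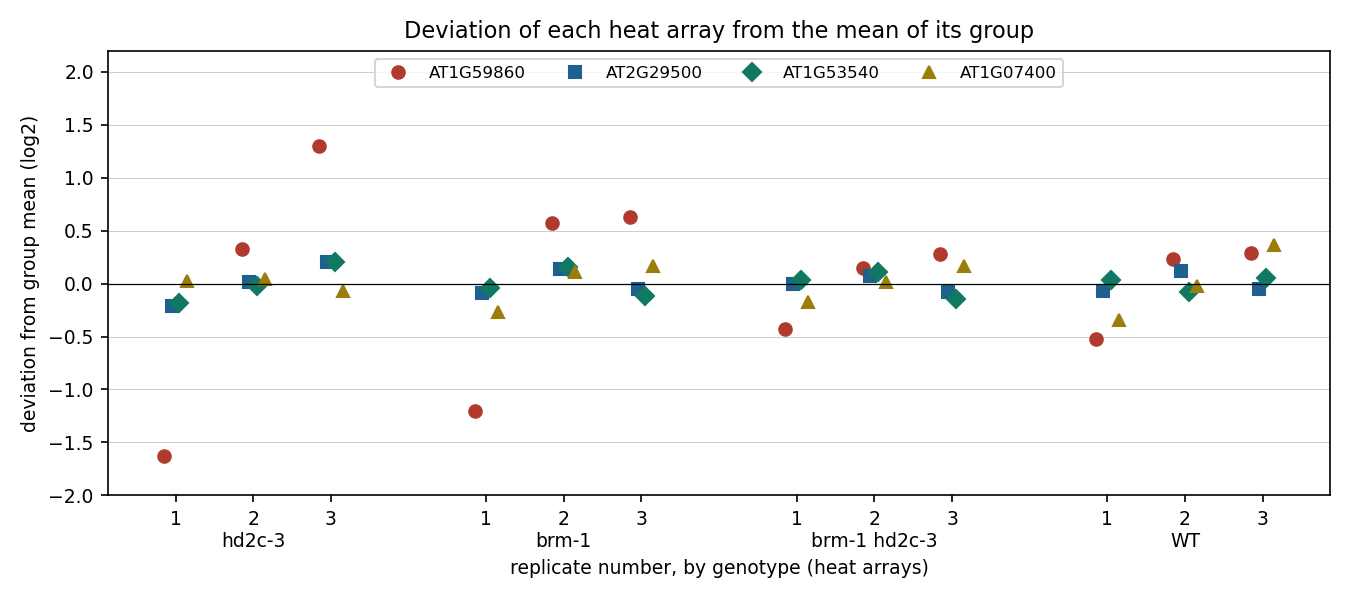
Deviation of each of the 12 heat arrays from the mean of its group on the log2 scale, for the 4 genes, with arrays named by replicate number under their genotype. AT1G59860 spans from −1.63 to 1.30 in hd2c-3 while the other genes stay within 0.37 of their means in every group.

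Other members of the chaperone system were set beside the class I genes. Of 10 other small heat shock proteins that were measured, 6 were called higher after heat in hd2c-3, 7 in brm-1, 7 in the double mutant and 6 in WT, and none lower. The median over the list was 4.66, 4.50, 4.26 and 3.42 in these genotypes, against 7.90, 7.33, 7.47 and 7.24 for the class I genes and at most 0.05 for all genes tested. In the same order AT5G51440 rose by 6.92 ± 0.29, 6.49 ± 0.29, 6.59 ± 0.29 and 5.48 ± 0.29, and ATHSP22.0, which resides in the endomembrane system, rose by 7.68 ± 0.27, 6.35 ± 0.27, 8.18 ± 0.27 and 6.82 ± 0.27. AT1G54400 and AT5G20970 were not called in any genotype, with values between −0.31 and 0.17. Both measured HSP70 genes, AT3G09440 and Hsp70-2, which refold the proteins that small heat shock proteins hold, were called higher in all 4 genotypes, by 0.93 to 3.01. Among 8 measured co-chaperones and other genes known to respond to heat, 7 were called higher in each genotype, including Hop3, which links HSP70 and HSP90, by 5.83 to 6.71. A rise after heat was part of the choice of this list, so its count is a description only. The lists were also chosen with earlier results of these data known. Over all genes, 8.88% were called higher in hd2c-3, 7.28% in brm-1, 9.38% in the double mutant and 5.8% in WT. The heat shock factors that regulate the class and some of its partners were not measured. No probe set was named alone for HSP101, any of 14 listed heat shock factors or any of 4 listed HSP90 genes. Probe sets named for several genes were not used.

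Between mutants and WT after heat the counts of these lists were as follows. In brm-1, where 0 of 4 class I genes were called, 4 of 10 other small heat shock proteins, 2 of 2 HSP70 genes and 5 of 8 co-chaperones were called higher, where 2.79% of all genes were. Fes1A, an exchange factor of HSP70, was higher there by 1.64 ± 0.36, Hsp70-2 by 1.48 ± 0.25 and AT1G54050, a small heat shock protein outside class I, by 1.57 ± 0.32. In hd2c-3 the counts were 4 of 10, 1 of 2 and 3 of 8 with 1 of 4 class I genes, where 0.495% of all genes were called higher. The calls over all genes in hd2c-3, in either direction, fell from 99 to 2 in a fit of the 12 heat arrays. In the double mutant the counts were 6 of 10, 2 of 2 and 6 of 8 with 1 of 4 class I genes, where 5.15% were called higher. The median differences of the class I genes were 0.69 in hd2c-3, 0.38 in brm-1 and 0.55 in the double mutant, against 0.61, 0.38 and 1.26 for the other small heat shock proteins and between −0.01 and 0.03 for all genes. Whether the lists differ from each other was not tested.

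**Figure D5:**
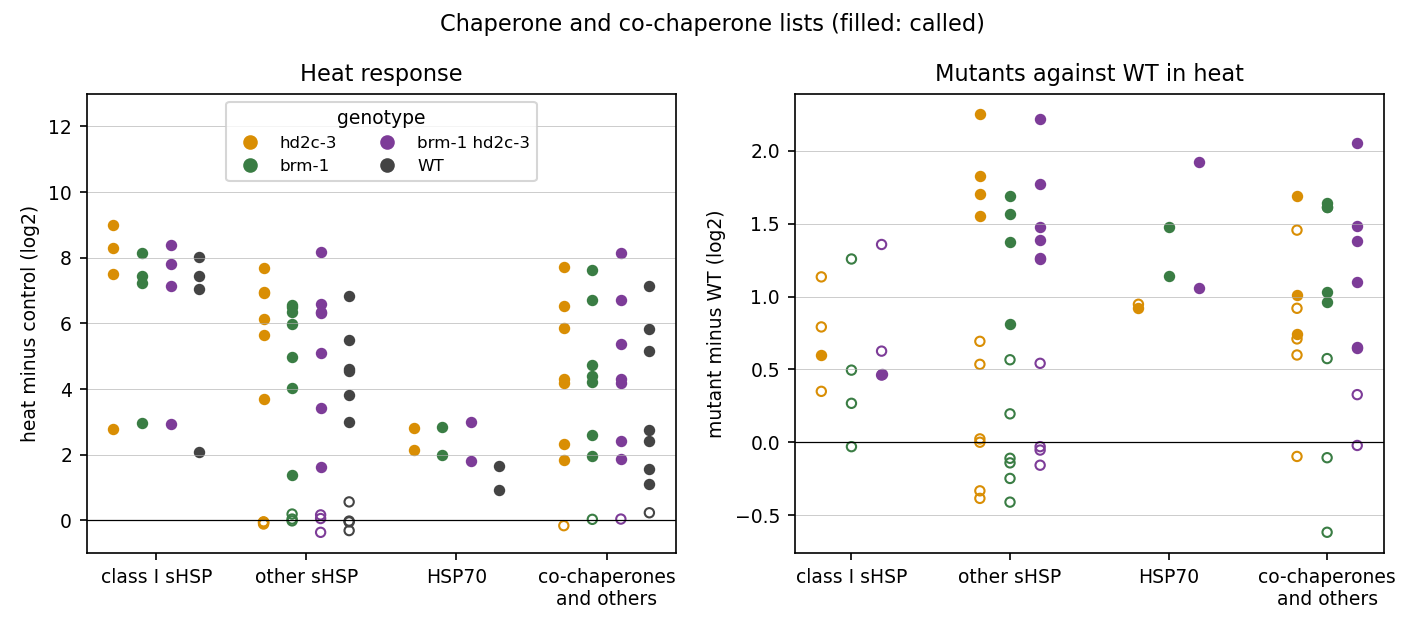
Heat minus control (left) and mutant minus WT after heat (right) on the log2 scale for every measured gene of 4 lists, by genotype, with filled symbols for called genes. On the left 3 class I genes stand at 7.05 or more in every genotype, and on the right 1 class I gene is filled in hd2c-3, none in brm-1 and 1 in the double mutant.

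Genes with a like pattern were sought among the 422 other genes that were called higher after heat in all 4 genotypes. Likeness was Pearson's r with the mean of the 4 class I genes over the 12 heat arrays, whose median over these candidates was 0.43. The 5 highest were AT1G67360 (r = 0.95), AT1G72660 (0.95), AT5G25450 (0.94), AT5G47610 (0.94) and Fes1A (0.93). Since AT1G59860 varies most, it weighs most in the mean: the r of these 5 genes was 0.86 to 0.91 with AT1G59860, 0.78 to 0.87 with AT2G29500, 0.75 to 0.84 with AT1G07400 and 0.53 to 0.62 with AT1G53540. AT1G72660 rose after heat by 6.07 in hd2c-3, 5.71 in brm-1, 6.05 in the double mutant and 5.61 in WT. AT5G25450 rose by 5.96, 6.14, 6.43 and 4.47 and Fes1A by 4.29, 4.22, 4.31 and 2.40 in the same order. AT1G67360 and AT5G47610 rose by 1.36 to 2.83.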

How the data were processed

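RNA of the 24 plant samples was hybridised to 24 Affymetrix arrays. The authors deposited log2 intensities per probe set after RMA; Partek and RMA are named, with no version, per the submitters' processing notes. RMA settings and the genome build are not given in the sources used here, and no scanner files were used. Of 38408 probe sets, 16746 carry 1 gene, 758 several and 20904 none; for a gene with several of its own, the brightest was used, giving 16552 genes, of which 16512 matched the TAIR10.1 gene table. One mean per group was fitted over all 24 arrays with limma 3.58.1 in R 4.3.3 (16 residual degrees of freedom, prior 6.25), without a filter or replicate block, two-sided, with Benjamini-Hochberg adjustment over all genes and a threshold of 0.05. Figures used Matplotlib 3.10.9. The genes, lists and comparisons were chosen with earlier results of these data known. All 4 class I genes are named in every comparison; genes of the chaperone lists may be named, and so may the 5 genes most like the class I mean among those higher after heat in all genotypes. Alternatives changed the scaling, a filter on dim probe sets (at least 3 arrays above the array's median), the variance prior, array weights, the block, the probe set rule and the arrays fitted, and left out each array in turn. The 12-array fits and the comparisons averaged over the other factor were added after the values were seen. With 3 arrays per group, the number of arrays limits the precision. No 2 arrays of a group held the same values (highest r 0.9934).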

Additional observations from a re-analysis of the deposited data

How the results depend on the processing

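The 16 heat responses of the 4 genes kept their direction and their call under every alternative and with any 1 array left out. Of the other single-gene values outside the leave-one-out fits, 2 changed direction, both between the heated double mutant and brm-1: AT1G07400 to 0.0244 with cyclic loess and AT1G59860 to −0.1627 with array weights; the cause was not tested. With 1 array left out, uncalled values changed size or direction as follows. Without WT heat replicate 1, AT1G07400 differed from WT after heat by 0.18 in hd2c-3, 0.32 in brm-1 and 0.29 in the double mutant. Against WT after heat, AT1G53540 in brm-1 ran from −0.106 to 0.0287. In control plants against WT, AT1G07400 in hd2c-3 ran from −0.56 to 0.22, AT1G53540 in hd2c-3 from −0.343 to 0.0783 and AT1G53540 in brm-1 from −0.137 to 0.0452. For the difference of heat responses from WT, AT1G53540 in brm-1 ran from −0.0747 to 0.108, AT1G07400 in brm-1 from −0.0662 to 0.413 and AT1G07400 in the double mutant from −0.31 to 0.35. After heat, the double mutant minus hd2c-3 ran from −0.59 to 0.87 for AT1G59860, and the double mutant minus brm-1 from −0.50 to 0.41 for AT1G59860 and from −0.17 to 0.0537 for AT1G07400. The replicate numbers were not treated as pairs, since no label ties them to a shared batch. Whether same-numbered arrays share one was not tested. Deviations of same-numbered arrays correlated between −0.225 and 0.409 over 84 pairs (median 0.032, 23 over 0.1), those of differently numbered arrays between −0.351 and 0.255 over 168 pairs (median −0.02, 26 over 0.1), and 11 of 24 arrays correlated best with their own number. With the replicate block, 2 class I genes rather than 1 were called in the heated double mutant against WT (AT1G59860 added, adjusted p = 0.0272), and 2 genes rather than 0 in the hd2c-3 and 51 rather than 31 in the brm-1 difference of heat responses. The number of class I genes called also changed elsewhere. With array weights it was 1 rather than 0 in heated brm-1 against WT (AT1G59860, 1.72, adjusted p = 0.00714) and 2 in the heated double mutant. It was 2 there with cyclic loess, without dim probe sets, with the intensity trend and with only the groups compared. In heated hd2c-3 against WT it was 0 rather than 1 with only the groups compared and with the 12 heat arrays. For the hd2c-3 difference of heat responses it was 1 rather than 0 with equal array medians, cyclic loess, no dim probe sets, the intensity trend and array weights. Between the heated double mutant and brm-1 it was 1 rather than 0 without dim probe sets and with the 12 heat arrays, and for the loss of HD2C 1 rather than 2 with the 12 heat arrays, which there are also the groups compared.

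Counts over all genes moved more. Heated hd2c-3 against WT had 99 calls, 164 without dim probe sets, 159 with the trend, 3 with only the groups compared and 2 with the 12 heat arrays. Heated brm-1 against WT had 844, 1290 with array weights, 531 with only the groups compared and 503 with the 12 heat arrays. The heated double mutant had 1545 against WT, 694 with only the groups compared and 965 with the 12 heat arrays. It had 833 against hd2c-3 (array weights 504, groups compared 215, 12 heat arrays 462) and 794 against brm-1 (groups compared 165, 12 heat arrays 331). With array weights the control comparisons with WT had 3 calls rather than 1 in hd2c-3, 1322 rather than 705 in brm-1 and 902 rather than 517 in the double mutant. The hd2c-3 difference of heat responses had 0 calls, and 3 with equal medians, cyclic loess or no dim probe sets, 2 with the trend, 7 with array weights and 1 with only the groups compared. The brm-1 difference had 31, and 63, 71, 89, 78 and 180 with equal medians, cyclic loess, no dim probe sets, the trend and array weights. The double mutant's difference had 243, and 440 without dim probe sets and 374 with the trend. The departure from additivity had 33, and 68 without dim probe sets, 57 with the trend and 3 with the groups compared or the 12 heat arrays. The losses of HD2C and BRM had 1007 and 1532, and 366 and 997 with the 12 heat arrays. With 1 array left out, the number of class I genes called ran from 0 to 2 in heated hd2c-3 against WT, from 0 to 1 in heated brm-1 and in the heated double mutant, and from 0 to 1 in the hd2c-3 difference of heat responses and for the loss of BRM. Calls over all genes ran from 3 to 357 in heated hd2c-3 against WT, from 384 to 1164 between the heated double mutant and brm-1, and from 633 to 1411 for the loss of HD2C. They ran from 1 to 2, from 458 to 554 and from 308 to 379 in the control comparisons of hd2c-3, brm-1 and the double mutant. They ran from 0 to 71, from 11 to 33 and from 138 to 311 for the differences of heat responses in the same mutants, and from 6 to 71 for the departure from additivity. Fewer arrays enter these fits and those of the groups compared; otherwise the cause was not tested. Depth in the sense of reads does not apply; the low control intensities, without a call of detection, limit the size of the folds.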
